A study of Homo sapiens with 9 samples.

Results

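The ETS family transcription factors described here are 9 human genes, ETS1, ETS2, ERG, FLI1, ELF1, ETV6, GABPA, SPI1 and ELK3, out of 20037 protein-coding genes in the RefSeq table of the GRCh38.p14 assembly. They were taken by name, and each was given a window made of its gene body and 50 kb to each side. Every deposited peak that overlapped a window was counted. Peaks came from ChIP-seq of RPMI-8402, an established human T-cell acute lymphoblastic leukaemia line, in which DNA bound by an antibody's target is recovered from formaldehyde-fixed, sonicated chromatin and sequenced. NKX2-1 (TTF1), a transcription factor of the homeodomain class, was targeted with antibody ab76013 in 4 clones that the series design text calls NKX2-1 knockout (C12, C15, S04 and S36, genotype field NKX2-1) and in 4 clones labelled WT (WT10, WT13, WT28 and WT30), with 1 library per clone. A single further library, without a replicate, targeted H3K27ac, the acetylated form of histone H3 lysine 27 that accompanies enhancer and promoter activity. NKX2-1 stands in the genotype field of that library too, and no clone is named for it. How the gene was disrupted, and at which site, is not given in the sources used here. No level of NKX2-1 itself is held in the peak files, and 1 library per clone cannot separate the spread between clones from that between preparations.

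ETS factors share a DNA-binding domain, the ETS domain, that recognises a GGAA core, and individual members act as activators or repressors depending on the partners bound beside them. In blood cells several of them occupy enhancers together with RUNX and GATA factors. SPI1 is silenced as thymocytes commit to the T lineage, ETS1 is kept on in mature T cells, and ERG, ETV6 and FLI1 are known from fusions or mutations in leukaemia or sarcoma.

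The H3K27ac list held 9857 peaks on chromosomes 1 to 22, X and Y, and the 8 NKX2-1 antibody lists held 810 to 934 peaks in knockout clones and 742 to 1144 in WT clones. Read depth is unknown for every library, so a window without a peak is one where none was called. An H3K27ac peak lay within 1 kb of an end of 4 of 8 T-cell marker genes (CD3D, CD3E, CD3G and LCK, not CD2, CD5, CD7 or PTCRA), and of 0 of 4 B-cell, 0 of 4 myeloid and 0 of 3 erythroid marker genes. The library of knockout clone S36 stood apart: it had a peak in 3.19% of all gene windows, while C12 had 1.13%, C15 0.938% and S04 0.843%. Among WT libraries the share was 2.98% in WT10, 0.599% in WT13, 1.44% in WT28 and 0.998% in WT30. Pairs of these libraries shared at most 4 peaks with identical positions.

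Promoter sequences from RefSeq (GRCh38.p14, 250 bases before to 50 bases after a start) were at hand for 6 of the 9 genes, with 13 starts in all. Of these, 3 are shown because an H3K27ac peak overlapped them, and that of ETV6 because none did although ETV6 carried the most peaks of the 9. They lie at chr21:25734722-25735021 (GABPA, plus strand), chr21:38805679-38805978 (ETS2, the inner of its starts, plus strand), chr21:38498428-38498727 (ERG, an inner start, minus strand) and chr12:11649424-11649723 (ETV6, plus strand). Each is printed 5′ to 3′ along its gene's strand, with the ETS core GGAA or its complement TTCC in capitals.
GABPA: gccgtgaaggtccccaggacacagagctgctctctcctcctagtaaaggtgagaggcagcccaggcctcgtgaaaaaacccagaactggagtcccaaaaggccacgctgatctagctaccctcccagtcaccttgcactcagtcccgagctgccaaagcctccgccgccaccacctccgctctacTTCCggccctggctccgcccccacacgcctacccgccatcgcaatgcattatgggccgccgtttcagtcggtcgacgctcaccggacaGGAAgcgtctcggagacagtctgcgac
ETS2: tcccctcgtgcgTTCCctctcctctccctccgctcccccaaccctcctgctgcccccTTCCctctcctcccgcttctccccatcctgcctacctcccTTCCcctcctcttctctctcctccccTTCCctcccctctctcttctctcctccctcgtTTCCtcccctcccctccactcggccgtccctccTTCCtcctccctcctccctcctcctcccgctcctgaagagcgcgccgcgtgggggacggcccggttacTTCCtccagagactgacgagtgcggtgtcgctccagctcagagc
ERG: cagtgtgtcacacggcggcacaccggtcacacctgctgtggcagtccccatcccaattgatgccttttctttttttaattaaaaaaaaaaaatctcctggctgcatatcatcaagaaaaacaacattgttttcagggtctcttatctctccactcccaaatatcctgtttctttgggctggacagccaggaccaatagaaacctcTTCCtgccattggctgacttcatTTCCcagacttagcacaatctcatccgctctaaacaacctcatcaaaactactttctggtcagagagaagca
ETV6: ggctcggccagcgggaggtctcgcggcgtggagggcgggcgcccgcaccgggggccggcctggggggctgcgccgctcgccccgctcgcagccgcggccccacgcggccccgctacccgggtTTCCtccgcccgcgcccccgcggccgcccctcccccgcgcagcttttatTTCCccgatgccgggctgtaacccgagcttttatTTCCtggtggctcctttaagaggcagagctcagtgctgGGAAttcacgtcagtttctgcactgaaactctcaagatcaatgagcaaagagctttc
The core was present in 12 of the 13 promoters, against 95.1% of the 22078 promoters of protein-coding genes in the table. The ETS2 sequence held 7 matches, all on the complementary strand, the ETV6 sequence held 4, and the GABPA and ERG sequences held 2 each, against a median of 3 over all promoters. The longer form CCGGAAG occurred on either strand in 1 of the 13, that of GABPA, against 12.8% of all promoters; it contains the GGAA core. The letters TGNGGT occurred in 7 of 13 against 41.7%. They take in TGTGGT and TGCGGT, the core bound by RUNX factors, but also TGAGGT and TGGGGT. Neither share is therefore one of RUNX cores alone. The ERG promoters of the starts at 38498477 and 38498504, which overlap each other, are both among the 7. Both match only through acctca, which reads TGAGGT on the other strand. The letters of the NK2 homeodomain motif, TNAAGTG, occurred in 2 of 13 (the outer ETS2 start and an inner ELF1 start) against 8.76%. These are matches of letters in a window and not sites of binding.

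H3K27ac peaks were called at 8 of the 9 ETS genes, where 44.8% of all protein-coding genes had a peak in a window made the same way. Over all 28 human ETS family genes, 14 had a peak, with a median of 0.5 peaks per gene. The 9 were chosen with earlier results of these data known, so their share does not stand for the family. The 9 windows held 74 peaks, with a median of 4 per gene against 0 over all genes. ETV6 had 32, ERG 15, ETS1 10, SPI1 6, FLI1 4, GABPA 3, ETS2 2, ELF1 2 and ELK3 0. ETV6 and ERG together held 47 of the 74, or 63.5%. The members had a median length of 128 kb against 24.1 kb over all genes. Of the 2510 genes whose window was at least as long as that of FLI1 (228 kb), 35.2% had a peak, and their median number of peaks was 0. ETS2, GABPA, SPI1 and ELK3 have shorter windows than FLI1. What gene length adds to the counts was not tested. Per 100 kb of window the order changed, with 9.26 peaks at ETV6, 4.85 at SPI1, 4.37 at ETS1, 3.80 at ERG, 2.18 at GABPA, 1.75 at FLI1, 1.67 at ETS2 and 0.872 at ELF1, and the median of 2.18 stood beside 0 over all genes. With 1 library, no neighbours in either order can be said to differ. The plot of peaks against window length shows where the genes lie among all others.

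**Figure D1:**
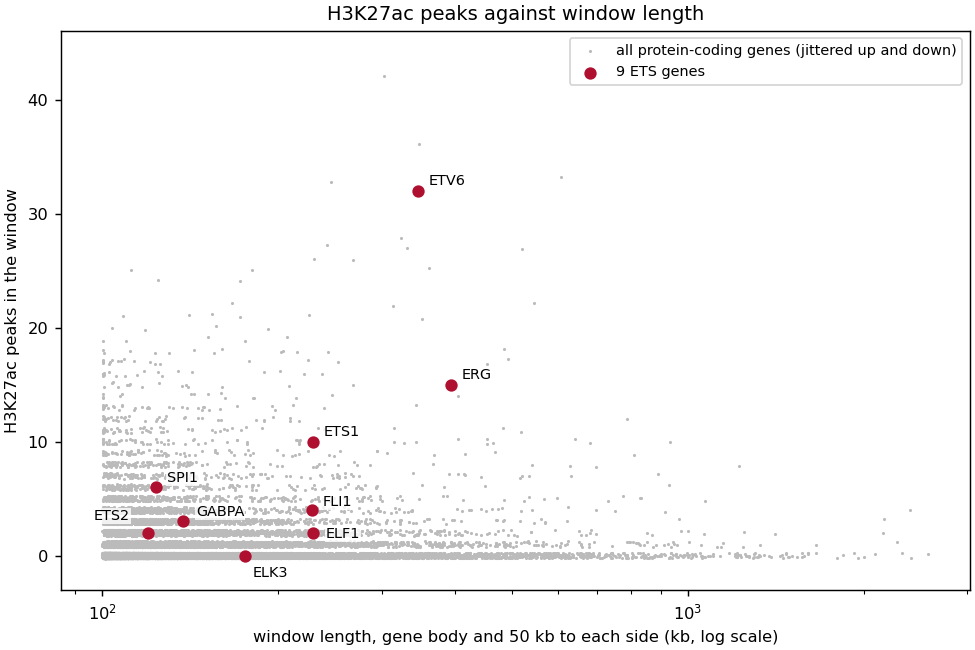
Number of H3K27ac peaks in the window of each gene (vertical axis) against the length of the window in kb (log scale), for 20037 protein-coding genes (grey, jittered vertically) and the 9 ETS genes (red). ETV6, with 32 peaks, lies near the top of the plot, while ELK3 lies at 0.

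ETV6, a repressor needed by haematopoietic stem cells and recurrently fused or deleted in leukaemia, had the most H3K27ac peaks of the 9. By number, 4 of the 20037 protein-coding genes had more in their window than its 32, and 1.56% of genes had 10 or more. Per 100 kb of window, 0.908% of genes had more than ETV6. With a −log10 q of at least 10, ETV6 had 3 peaks, as many as ETS1. Of the 32 peaks, 29 lay in the gene body (chromosome 12, 11649674 to 11895377, 246 kb). None lay near its annotated start at 11649674, the lower-coordinate end: the first peak began 103 kb into the gene. From there 4 groups of peaks followed, when peaks up to 12.5 kb apart were joined. The largest held 13 peaks over 27.3 kb (11788422 to 11815736), and its strongest member (11796129 to 11800961) was 4833 bp wide with an 18.6-fold enrichment at the summit, the authors' own value, as are all folds given here. That peak was the 20th widest and 33rd by enrichment of the 9857. A second wide peak of the group (11811603 to 11813981) had 13.5-fold. Another group of 11 peaks ran for 21.8 kb over the 3′ end of the gene, with folds between 4.72 and 8.63.

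ERG, a regulator of haematopoietic stem cells and endothelium that is expressed in a share of T-cell leukaemias, carried the widest peaks of the 9 genes. Its 15 peaks all lay in the gene body (chromosome 21, 38367261 to 38661783, 295 kb). A peak of 6955 bp (38493239 to 38500193, 19.6-fold) was the 8th widest of all 9857 and one of 6056 bp (38473043 to 38479098, 19.9-fold) the 10th widest. With 11 narrower peaks they formed a group 28.8 kb long, of which 17.9 kb was covered, the 5th largest covered length among 5140 groups. When only peaks up to 5 kb apart were joined, a setting chosen after the data were seen, the pair fell into separate groups and the longest at ERG spanned 12.2 kb with 9 peaks. The wider of the pair contained 2 annotated inner starts of ERG, at 38498477 and 38498504, 1 of which belongs to the ERG promoter printed above. The promoter of the outermost start (38660667), on the minus strand, lay 145 kb from the nearest peak, which was one of ETS2 (38805865 to 38807020). The promoter of another start, at 38584945, lay 84.7 kb from the 6955 bp peak. The 2 remaining ERG peaks, near the 3′ end, were 257 and 266 bp wide with 5.70- and 6.19-fold.

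ETS1, which supports the development and survival of T and NK cells, had 10 peaks, all within its body (chromosome 11, 128458765 to 128587558). They fell in 3 groups. The first, 6 peaks over 10.5 kb starting 13.7 kb from the lower-coordinate end, held the strongest (128477005 to 128477724, 10.1-fold, 720 bp). The widest, 1980 bp with 8.63-fold (128549091 to 128551070), was in the third. In the middle group, peaks of 7.41-fold (128521151 to 128522097) and 5.21-fold (128522548 to 128522792) flanked the microRNA gene MIR6090. Its mature product, at chr11:128522430-128522448 on the plus strand, is printed for its position in the gap between those peaks, with the seed (bases 2 to 8) in capitals.
hsa-miR-6090: gGGGAGCGaggggcggggc
No peak lay within 36.5 kb of the higher-coordinate end of ETS1.

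FLI1, the neighbour of ETS1 on chromosome 11 and a close relative of ERG that drives megakaryocyte development, had 4 peaks. The gap between the bodies of ETS1 and FLI1 is 97.6 kb and held 1 peak, the strongest of the FLI1 window (128678296 to 128679691, 1396 bp, 12.3-fold), which lay 5.44 kb outside the lower-coordinate end of FLI1. The other 3, of 5.94-, 8.39- and 6.92-fold, lay close together 8.89 to 10.3 kb inside that end, where the long non-coding RNA gene SENCR also lies. On chromosome 21, ETS2 and ERG form a similar pair, but the 143 kb between their bodies held 0 peaks. ETS2, a relative of ETS1 that responds to RAS and MAP kinase signalling, had a peak of 1156 bp and 9.61-fold (38805865 to 38807020), which overlapped the inner ETS2 promoter printed above, and a second of 257 bp and 5.94-fold. The outer ETS2 start lay 682 bp before the first of them.

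GABPA encodes the DNA-binding subunit of GABP, an activator of mitochondrial and other housekeeping genes. Its 3 peaks lay around its start at 25734972 on chromosome 21, beside ATP5PF, a gene of mitochondrial ATP synthase. The first peak (25734278 to 25734893, 5.70-fold) ended before the start and the second (25735028 to 25735739, 11.8-fold) began 56 bp after it, so the start itself lay between them. The first of these was the peak that overlapped the printed promoter. Both overlapped ATP5PF, and signal of the pair of genes cannot be told apart there. ELF1, a factor of lymphoid gene regulation, had only 2 weak peaks (6.43- and 5.45-fold) 73.5 kb from its lower-coordinate end. The promoters of its 3 annotated starts lay 22.3 to 54.8 kb from a peak. SPI1 encodes PU.1, a factor of myeloid and B cells. Of its 6 peaks, 3 lay in its body (5.66- to 7.72-fold, within 3.52 to 5.49 kb of the lower-coordinate end) and none within 15.8 kb of its higher-coordinate end. Of the other 3, those of 7.24- and 8.33-fold lay in SLC39A13, a zinc transporter gene, and in PSMC3, a proteasome subunit gene. The long non-coding RNA gene SLC39A13-AS1, also named LOUP, held 2 of the SPI1 window's peaks, a 1407 bp peak of 5.91-fold (47394346 to 47395752) and the one in SLC39A13. ELK3, a ternary complex factor that works with SRF, had no peak in its window, and the nearest lay 252 kb away.

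**Figure D2:**
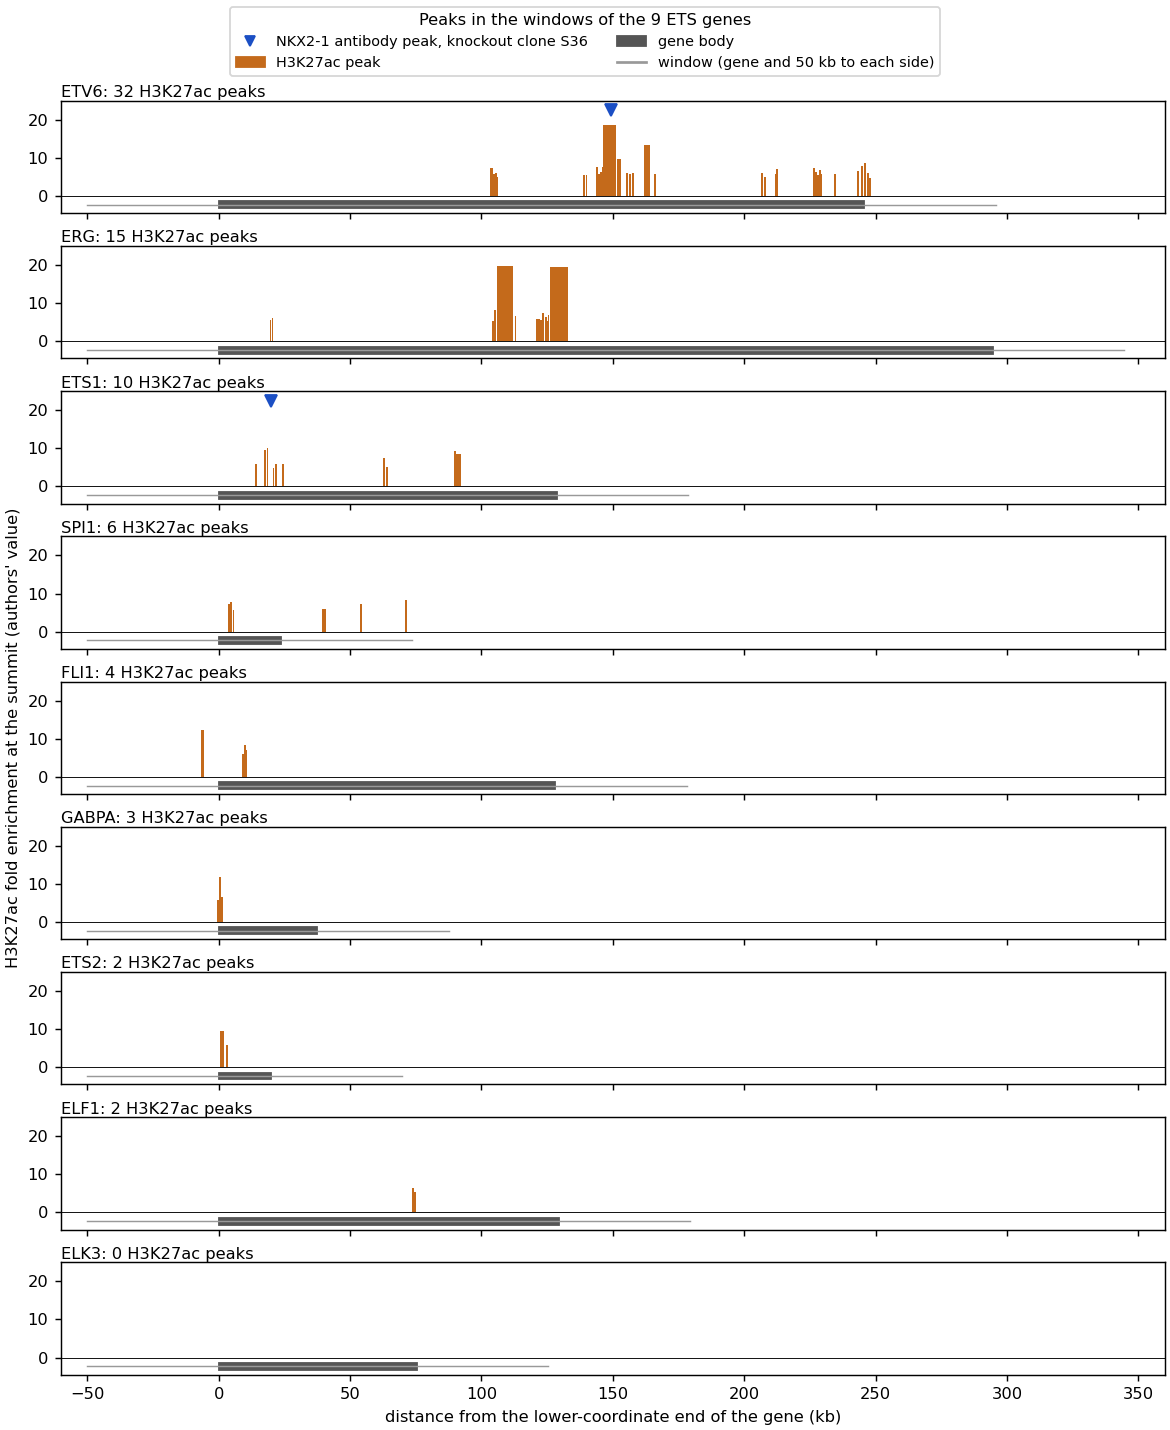
H3K27ac peaks in the 9 windows, by distance from the lower-coordinate end of each gene in kb (horizontal axis) and fold enrichment at the summit (vertical axis); bars narrower than 0.7 kb are drawn at 0.7 kb, grey blocks are gene bodies, and blue triangles mark NKX2-1 antibody peaks of knockout clone S36. ETV6 and ERG carry the tall wide peaks, both inside the gene body, and the triangles lie within ETV6 and ETS1.

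As single peaks, those at the ETS genes were close to the whole list in size and enrichment. Their median width was 385 bp against 391 bp for all 9857 peaks, and their median fold 6.31 against 6.19. Of the 74, 10 (13.5%) were 1 kb or wider, against 11.4% of all, and 7 (9.46%) had 10-fold or more, against 8.02%. The exceptions in size were those of ERG and ETV6 named above. In position, 66 of the 74 lay in the body of the gene itself and 3 of the other 8 in a neighbouring protein-coding gene. A peak within 1 kb of a gene end was found at 3 of the 9 genes (ETS2 and GABPA at the start, ETV6 at the 3′ end), where 3811 of all 20037 genes had one. An H3K27ac peak overlapped 4 of the 13 promoters, belonging to ETS2, ERG and GABPA, against 9.20% of all promoters. Those of the ERG starts at 38498477 and 38498504 overlap each other and lie under the same peak, so they are not separate cases. No test of the list was made.

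**Figure D3:**
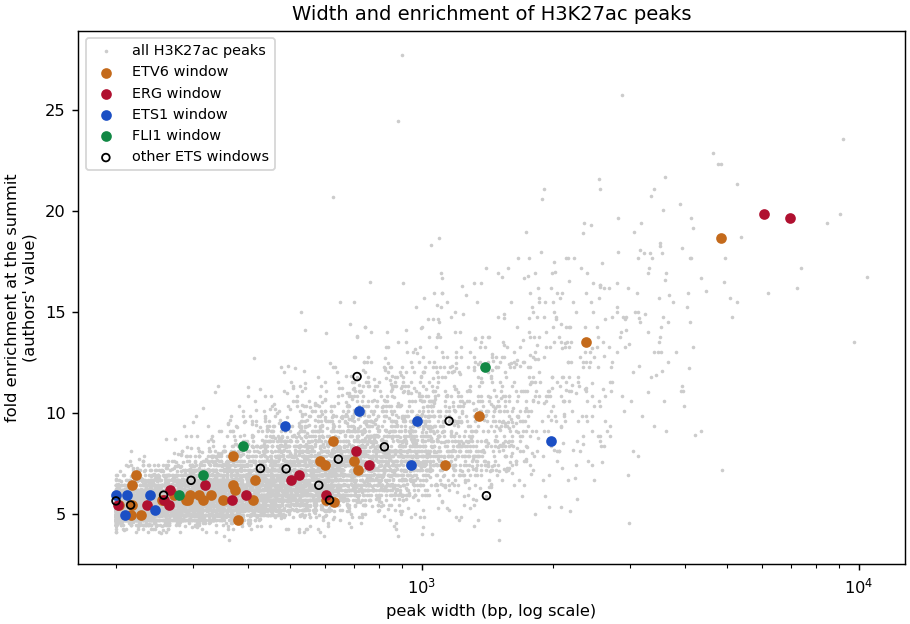
Width in bp (log scale, horizontal axis) and fold enrichment at the summit (vertical axis) of H3K27ac peaks in the ETS windows (coloured or open points) over all 9857 peaks (grey). Most ETS peaks lie in the bulk, while the 6056 and 6955 bp peaks of ERG and the 4833 bp peak of ETV6 lie at the wide, strong end.

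Libraries of knockout clones were set against those of WT clones to ask where NKX2-1 binds. At the ETS genes, the NKX2-1 antibody gave a peak in the window of 2 of the 9 genes in knockout clones and of 0 in WT clones, and both came from S36. S36 had 1 peak at ETS1 and 1 at ETV6, while C12, C15 and S04 had 0 and WT10, WT13, WT28 and WT30 had 0. The 2 of 9 stood beside 3.19% of all gene windows with an S36 peak, 4.42% of those at least as long as that of FLI1, and 5.61% with a call in at least 1 of the 8 libraries. Without S36 none of the 9 genes had a call in any library, while 1.57% of all genes had one in another knockout library. A call in S36 and no other library was found at 1.59% of all genes. Windows called in at least 1 knockout library and in no WT library made up 2.23% of all genes, and the reverse 2.22%.

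The S36 peak in ETS1 (chromosome 11, 128478324 to 128478654, 331 bp) had a 6.69-fold enrichment and a −log10 q of 10.9, and ranked 473rd of the 934 S36 peaks by fold. It fell within the first H3K27ac group of ETS1 but between its peaks, 600 bp from the one below and 649 bp from the one above. The S36 peak in ETV6 (chromosome 12, 11798891 to 11799157, 267 bp) had 5.73-fold and a −log10 q of 9.43, and ranked 629th. It lay inside the 4833 bp H3K27ac peak, with the summits 496 bp apart. S36 had 232 peaks that no other library overlapped, of which 24 (10.3%) overlapped H3K27ac, and the ETS1 and ETV6 peaks ranked 95th and 160th among them by fold. H3K27ac overlapped 4.71% of all S36 peaks, against 0.119% to 1.23% in the other knockout libraries, 6.47% in WT10 and 0.270% to 2.63% in the other WT libraries. The ETV6 call was among the S36 peaks that overlapped H3K27ac and the ETS1 call was not. What led to either call was not tested.

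In the other libraries the nearest calls were far away. For ETV6 they lay 4.96 Mb (C12), 5.31 Mb (C15) and 4.96 Mb (S04) from the gene in knockout clones, and 4.96 Mb (WT10), 9.39 Mb (WT13), 6.82 Mb (WT28) and 9.39 Mb (WT30) in WT clones. For ETS1 they lay 74.5 Mb (C12), 6.44 Mb (C15) and 74.5 Mb (S04) away in knockout clones, and 0.156 Mb (WT10), 6.44 Mb (WT13), 1.30 Mb (WT28) and 1.30 Mb (WT30) in WT clones. The knockout and WT distances overlapped for both genes. The WT10 peak 156 kb from ETS1 (128302561 to 128302761, 4.77-fold), outside its window and in no protein-coding gene, was the nearest WT call to any of the 9 genes. It was also in the WT-only list and in the authors' combined list (4.11-fold there), and overlapped no H3K27ac peak.

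Genotypes were compared in every gene window by the number of libraries with a call (Fisher's exact test, two-sided). For ETS1 and for ETV6 the exact test set 1 of 4 knockout against 0 of 4 WT libraries, with p = 1 and a Benjamini-Hochberg adjusted p of 1 over the 1124 genes with any call. None of the 1124 genes (0%) passed adjustment, 24 had an unadjusted p under 0.05 and the smallest p that 4 against 4 can give is 0.0286. Among 1643 merged regions of the 8 libraries likewise 0 (0%) passed in the same exact test and 19 had an unadjusted p under 0.05. With this design a miss does not show that the genotypes were alike at these genes. The calls of ETS1 and ETV6 over the 8 libraries (S36 only) were shared by 317 other genes. Of these, AHRR, RIPK4 and TLR9 had as many H3K27ac peaks as ETS1 (10 each), and NACC1, ARRB1 and NOTCH1, with 24, 20 and 19, came closest to ETV6.

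**Figure D4:**
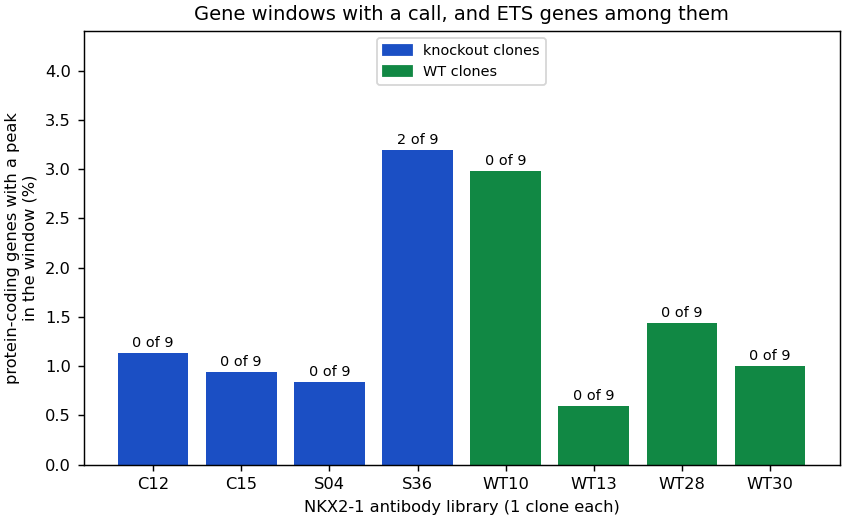
Share of 20037 protein-coding genes with an NKX2-1 antibody peak in the window (vertical axis, percent) in each library, knockout clones in blue and WT clones in green, with the number of ETS genes called out of 9 above each bar. S36 has 3.19% and 2 of 9, and WT10 has 2.98% and 0 of 9.

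None of the 9 ETS genes had a region of the authors' combined list or of the WT-only list in its window. Over all protein-coding genes 1.68% had a combined-list peak and 2.40% a WT-only region there, and 0 of 9 beside shares this low is not a result about these genes. The WT-only list is identical to the merged WT peaks that no knockout peak overlaps, in all 496 regions on these chromosomes, so it could not hold the S36 regions.

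Elsewhere in the ETS family, 2 genes had NKX2-1 antibody peaks. Of the other 19 human ETS genes, 0 had a call in a knockout library and 2 in a WT library, ETV5 and EHF. These stood beside 2.22% of all genes with calls in WT libraries alone, and 2.98% with a call in WT10, which had both. Both also had a combined-list peak and a WT-only region. ETV5, a factor downstream of fibroblast growth factor signalling, had 0 calls in knockout clones and a peak within the gene in WT10 (chromosome 3, 186060295 to 186060687, 7.87-fold) and in WT28 (186060322 to 186060574, 6.78-fold). The difference, 0 of 4 knockout against 2 of 4 WT libraries, gave p = 0.429 in Fisher's exact test and an adjusted p of 1. EHF, an epithelial factor, had a peak within the gene in WT10 alone (chromosome 11, 34650467 to 34650863, 6.45-fold; 0 of 4 knockout against 1 of 4 WT libraries, exact p = 1, adjusted p = 1). Neither overlapped H3K27ac. In the combined list their folds were 3.03 and 2.79.

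An H3K27ac peak was called in the window of 6 of the other 19 genes, with 15 peaks in all and a median of 0, beside 44.8% and a median of 0 over all protein-coding genes. ERF, a repressor controlled by ERK, had 5, ELK4 had 4, and ELF2 and ETV5 had 2 each, and ELF4 and ELF5 had 1 each. The strongest peaks there had 7.60-fold (ERF), 6.79-fold (ELK4) and 7.90-fold (ELF2), and ERF, ELK4, ELF2, ETV5 and ELF4 each had 1 peak in the gene body. EHF had none. SPIB and SPIC, the relatives of SPI1 in B cells and macrophages, had none either. Across the 28 genes the first 4 places by number of peaks were held by ETV6, ERG, ETS1 and SPI1. The place of SPI1 depended on the setting. With windows of 10 kb it had 3 peaks, where FLI1 had 4, and with a −log10 q of at least 10 it had 0.

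**Figure D5:**
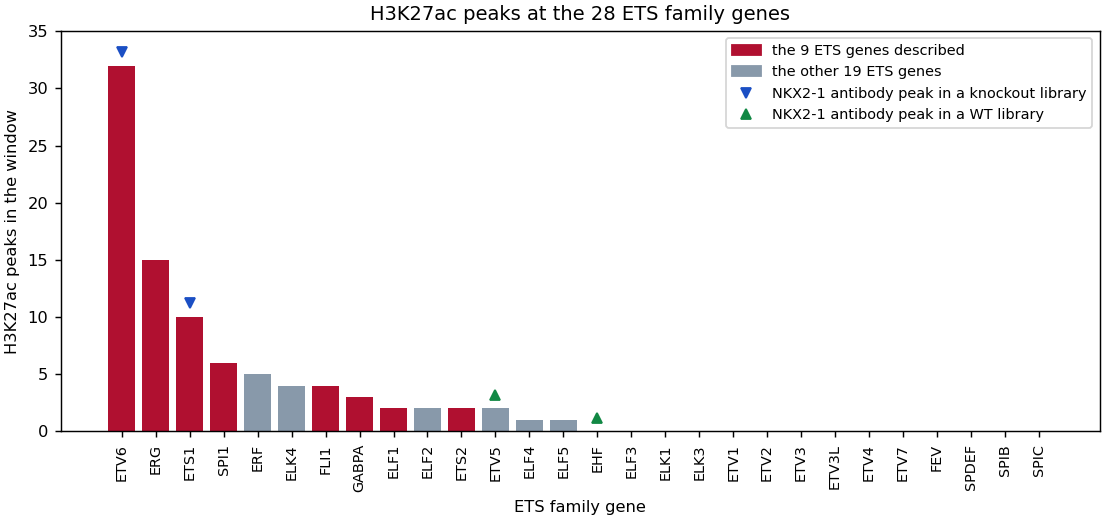
Number of H3K27ac peaks in the window (vertical axis) for the 28 human ETS family genes, the 9 described here in red and the other 19 in grey, ordered by number. Triangles mark genes with an NKX2-1 antibody peak in a knockout library (blue, pointing down: ETV6 and ETS1) or in a WT library (green, pointing up: ETV5 and EHF).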

How the data were processed

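ChIP-seq peak lists of 9 samples were used. Per the submitters' processing notes the build was hg38 and the tools included Bowtie2 and MACS2, beside FastQC, SAMtools and deepTools; versions, thresholds and the control are not given in the sources used here. In the deposited peak lists column 7 is a ratio (fold enrichment at the summit) and column 9 the −log10 of a q-value, in the MACS2 layout. Peaks were called by the authors per sample; which libraries made the deposited combined list is not stated. No read numbers are given, so depth is unknown and no interval or floor was computed.

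Positions are 1-based. Chromosomes 1 to 22 with X and Y were kept. Peaks were counted in a window (RefSeq GRCh38.p14 gene body and 50 kb to each side) from 1 bp of overlap, for every protein-coding gene. Knockout was compared with WT by a two-sided Fisher's exact test per gene and per merged region, with Benjamini-Hochberg adjustment over all genes or regions with a call and a threshold of 0.05. H3K27ac peaks up to 12.5 kb apart were joined into groups. Counting, merging and the p-values before adjustment were checked on simulated data. All 9 genes, the other 19 ETS genes by count, and genes under a described peak were named. The members and lists were chosen with earlier results of these data known. Python 3.11.15, pandas 2.3.3, NumPy 2.4.6 and SciPy 1.17.1 were used.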

Additional observations from a re-analysis of the deposited data

Results flagged for a closer look

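Among the 4 knockout libraries S36 lay far from the other 3 in its share of gene windows with a call. It had a peak in 3.19% of all gene windows, against 0.843% to 1.13% in C12, C15 and S04. Of 6 quantities examined over the knockout libraries 3 stood out in this way, and of 5 over the WT libraries 0; chance flags about 1 group in 20. The other 2 restate the S36 calls described above and are no separate evidence. S36 had a call at 2 of the 9 ETS genes, against 0 in each of the others, a pattern that stands out by construction when 1 library alone has calls. Its nearest peak to ETV6 lay at 0 kb, in the gene, against 4.96 to 5.31 Mb in the others.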

How the results depend on the processing

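No paired analysis was possible because each clone gave 1 library and the labels tie no knockout clone to a WT clone. With only peaks of −log10 q of 10 or more, H3K27ac peaks in the 9 windows fell to 11 and the ETS genes with an NKX2-1 antibody peak to 1 (ETS1, in S36), both in all libraries and in the knockout libraries; H3K27ac peaks then numbered 3 at ETS1 and at ETV6, 2 at ERG, 1 at ETS2, FLI1 and GABPA and 0 at ELF1 and SPI1. Leaving out each library in turn gave 0 to 2 ETS genes with a call overall and in knockout clones, the 0 being without S36. The number of ETS genes with an H3K27ac peak, with a WT call or with a listed region stayed within 1.5 times of the reported one, or at 0, with windows of 10 and 100 kb, summits in place of overlap and all sequences of the files. Windows of 10 kb left 3 peaks at SPI1. The number of genes and of merged regions past adjustment was 0 in each setting by Fisher's exact test. For genes it was 0 by the exact permutation test too. These zeros say nothing of stability. The smallest p that either test can give here is 0.0286, which passes adjustment only if most tested genes or regions reach it. Unadjusted p under 0.05 was reached by 5 to 60 genes and 15 to 54 regions, the highest without WT13. Joining H3K27ac peaks at 5 kb, a setting chosen after the data were seen, cut the largest ERG group to 12.2 kb. Unknown depth limits every absence.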
